A study of Mus musculus with 10 samples.

Results

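The B7 ligand genes measured here are Cd276, Cd274, Pdcd1lg2, Cd80, Cd86, Icosl and Vtcn1, which were taken by symbol and are 7 of the 47643 genes in the tables. RNA was sequenced from 10 mouse melanomas, 5 Fes KO and 5 Fes WT. All carried Tyr::CreERT2/+, BRafV600E/+ and Ptenl/l, with Fes-/- in Fes KO and Fes+/+ in Fes WT. In them the Tyr promoter, active in the melanocyte lineage, drives a Cre recombinase that 4-hydroxytamoxifen switches on, and it was painted on the back skin at 5 mM. The Fes alleles are written as -/- and not as a conditional allele, so the label covers the host cells of the tumour as well as the melanoma cells. The female-expressed RNA Xist reached 713 CPM in Fes KO 1, 670.1 CPM in Fes KO 2, and also 720 CPM in Fes WT 5, and was below 1 CPM in the other 7 tumours, so sex is not balanced between the groups. The sources used here do not state age, strain or sex, nor whether each tumour came from its own animal, so p-values measure only the spread between these tumours.

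Cd276 was chosen by its measured difference between Fes KO and Fes WT, where it was 1 of 26 genes called, and the other genes because they belong to its family. Fold changes between the groups are therefore given as descriptions and not as tests. In the edgeR quasi-likelihood fit over all genes, 5 of the 7 passed the filter on low counts, and 1 of those 5, Cd276, had an adjusted p below 0.05, where 0.175% of all 14816 tested genes did, and 0.0472% did so with a higher level in Fes KO. Cd276 was also the one of the 5 with an unadjusted p below 0.05, as had 9.62% of all tested genes. Pdcd1lg2 and Vtcn1 did not pass the filter.

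B7 ligands are membrane proteins of the immunoglobulin superfamily that T cells read beside the antigen. CD80 and CD86 on antigen-presenting cells engage CD28, which helps activate a T cell, and CTLA-4, which restrains it, while PD-L1 (Cd274) and PD-L2 (Pdcd1lg2) restrain T cells through PD-1. ICOSL (Icosl) supports T cells through ICOS, and B7-H4 (Vtcn1) and B7-H3 (Cd276) are mostly described as inhibitory, with receptors that are not settled. B7-H3 is made by many non-immune cells and is high in human melanoma and other solid tumours.

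Promoter sequence, which the choice of genes did not use, differed widely within the family. RefSeq start-site windows of 300 bases on GRCm38.p6, from 250 bases before to 50 after the start, were held for 6 of the 7 genes, and 4 are shown because they span the range of expression, from the most abundant ligand to the least. Capitals mark each CpG dinucleotide, and all run 5′ to 3′ on the strand of the gene.
Cd276: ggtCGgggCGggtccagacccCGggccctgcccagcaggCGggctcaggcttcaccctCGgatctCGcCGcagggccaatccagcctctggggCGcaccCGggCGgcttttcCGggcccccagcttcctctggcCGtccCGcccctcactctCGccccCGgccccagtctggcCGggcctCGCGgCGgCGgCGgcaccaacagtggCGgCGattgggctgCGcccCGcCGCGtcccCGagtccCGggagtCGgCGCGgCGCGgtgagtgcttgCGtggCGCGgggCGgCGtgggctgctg
Icosl: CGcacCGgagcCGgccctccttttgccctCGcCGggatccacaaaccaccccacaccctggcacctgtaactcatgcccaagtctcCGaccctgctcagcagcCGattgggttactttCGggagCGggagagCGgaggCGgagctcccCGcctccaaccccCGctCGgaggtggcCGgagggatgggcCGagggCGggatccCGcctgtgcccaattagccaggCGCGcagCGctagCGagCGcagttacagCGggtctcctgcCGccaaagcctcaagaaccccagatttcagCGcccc
Cd274: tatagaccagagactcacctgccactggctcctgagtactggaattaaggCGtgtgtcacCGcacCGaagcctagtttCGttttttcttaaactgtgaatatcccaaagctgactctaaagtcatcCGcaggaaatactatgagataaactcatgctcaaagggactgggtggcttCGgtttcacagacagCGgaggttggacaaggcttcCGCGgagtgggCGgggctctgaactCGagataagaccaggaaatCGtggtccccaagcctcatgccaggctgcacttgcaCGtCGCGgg
Pdcd1lg2: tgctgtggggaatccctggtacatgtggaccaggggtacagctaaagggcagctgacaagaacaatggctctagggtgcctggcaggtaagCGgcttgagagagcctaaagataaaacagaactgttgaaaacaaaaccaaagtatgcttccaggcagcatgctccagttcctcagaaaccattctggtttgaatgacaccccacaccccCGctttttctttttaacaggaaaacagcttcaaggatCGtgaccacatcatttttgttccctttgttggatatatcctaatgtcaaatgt
In these windows Cd276 (chr9:58554984-58555283, minus strand) held 39 CpG, Icosl (chr10:78069118-78069417, plus strand) 26, Cd274 (chr19:29367188-29367487, plus strand) 15 and Pdcd1lg2 (chr19:29410669-29410968, plus strand) 3. Cd80 and Vtcn1, not shown, held 3 and 5. The windows of Cd276 and Cd80 (chr16:38458683-38458982) lie wholly within the GENCODE M21 bounds of these genes, so other annotated starts lie upstream. Sequence at those starts was not examined. The median over 32851 windows was 7, and 4.45% of them held at least as many CpG as Cd276. The GC box, GGGCGG on either strand, was found 4 times in the Cd276 window, 1 time in those of Icosl and Cd274, and in none of the other 3, against 35.7% of all windows with at least 1. The interferon-gamma activation letters TTCNNNGAA, which read the same on both strands and occur in 8.30% of all windows, occurred in none of the 6.

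The order of the family was set by levels per length, as CPM (counts scaled to library size) per kilobase of exon. Over all 10 tumours Cd276 was at 20.7 ± 7.06, Icosl at 11.0 ± 4.28, Cd86 at 2.65 ± 1.12, Cd274 at 2.21 ± 1.15 and Cd80 at 0.807 ± 0.291 (SD, n = 10). Vtcn1 had a mean of 0.165 and Pdcd1lg2 one of 0.101, and the place of Vtcn1 rests on 1 tumour, since it was at 0 in 8 of the 10. Over all 21 pairs of genes compared within tumours by an exact 2-sided sign-flip permutation test, 19 differed at an adjusted p below 0.05. The 2 that did not were Cd86 and Cd274, where Cd86 was the higher in 6 of 10 tumours (mean log2 difference 0.26, SD 0.59, exact p = 0.207, adjusted p = 0.207), and Vtcn1 and Pdcd1lg2 (exact p = 0.0703, adjusted p = 0.0738). The pairs with Cd276 pool groups that differ in the values by which it was chosen. The length-scaled level of Cd276 was above that of Icosl in all 5 Fes KO tumours, at 26.6 ± 4.50 against 9.48 ± 3.58 for Icosl. In Fes WT it was at 14.7 ± 1.98, against 12.4 ± 4.78 for Icosl, and Icosl was the higher in Fes WT 2 and Fes WT 4.

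**Figure D1:**
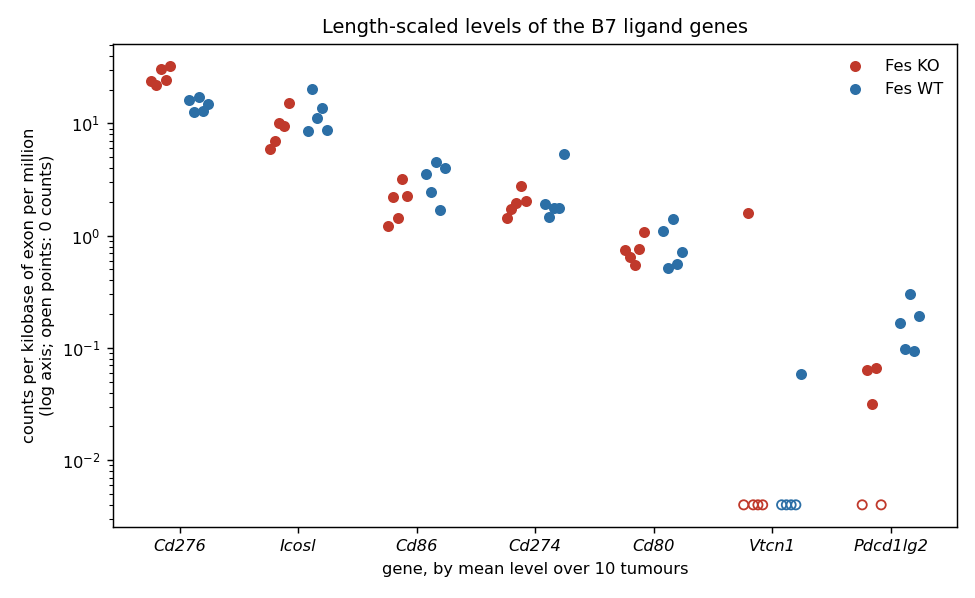
CPM per kilobase of exon on a log axis for the 7 genes, ordered by their mean over 10 tumours, with Fes KO left of Fes WT for each gene and each point 1 tumour. Open points mark tumours with 0 counts. Cd276 and Icosl lie above the other genes, and Cd86 and Cd274 overlap.

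Cd276 (ENSMUSG00000035914), the B7-H3 gene, spans chromosome 9 from 58524298 to 58555437 on the minus strand (GRCm38, GENCODE M21). Its level was 87.3, 80.9, 111, 88.7 and 119 CPM in Fes KO 1 to 5, against 59.0, 46.0, 62.9, 47.5 and 54.1 CPM in Fes WT 1 to 5. Each Fes KO tumour was above each Fes WT tumour, as in 0.783% of all tested genes, and the spread within each group was narrow for this family, with a coefficient of variation of 16.9% in Fes KO and 13.4% in Fes WT. The means of 97.3 ± 16.5 CPM in Fes KO tumours and 53.9 ± 7.23 CPM in Fes WT tumours (SD, n = 5 each) are 1.80-fold apart, and the log2 fold change was 0.85 (SE 0.13). These are the values that chose the gene: its edgeR adjusted p of 0.0466 ranked 23 of the 26 calls. The genes just inside the threshold with it were Ppef2 (adjusted p = 0.0493), Gm10167 and Smoc2 (both 0.0496), and those just outside were Adamdec1 and Akr1c13 (both 0.0615). The direction of Cd276 was kept in all 21 alternative fits, at a log2 fold change between 0.74 and 0.98. As the groups do not overlap, leaving out tumours could not have turned it, so this adds no support. The call was kept in 8 of the 21, and with 1 tumour left out it was kept only without Fes KO 2 (edgeR adjusted p = 0.0326).

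Gm10657, on the opposite strand, shares 416 exonic bases with Cd276, and the sources used here do not say whether counting used strand. It was counted at 35 reads over all Fes KO tumours and 20 over all Fes WT tumours, against 7465 and 4073 for Cd276 itself. Reads given to Gm10657 are thus few beside those of Cd276, although how reads in the shared bases were assigned was not tested.

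**Figure D2:**
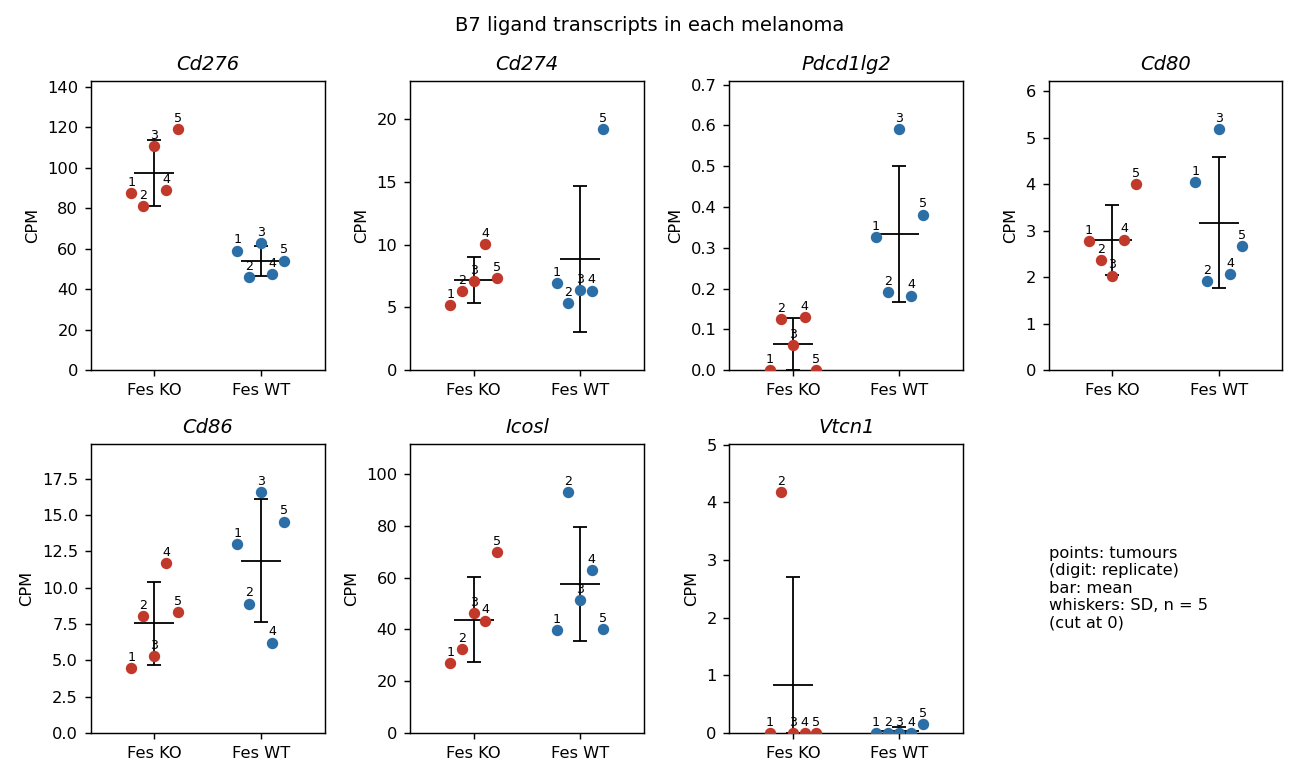
CPM of each of the 7 genes in Fes KO (left) and Fes WT (right) tumours, with the replicate number at each point, the mean as a bar and the SD over 5 tumours as whiskers cut at 0. Cd276 lies higher and Pdcd1lg2 lower in every Fes KO tumour, while the other 5 genes overlap between the groups.

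Cd274 and Pdcd1lg2 encode the ligands of PD-1, the receptor blocked by PD-1 antibodies in melanoma therapy. They lie side by side on chromosome 19, with Cd274 (ENSMUSG00000016496) from 29367455 to 29388095 and Pdcd1lg2 (ENSMUSG00000016498) from 29410919 to 29471161, both on the plus strand and 22823 bases apart. Cd274 was at 5.17, 6.30, 7.09, 10.1 and 7.36 CPM in Fes KO 1 to 5, against 6.92, 5.35, 6.37, 6.35 and 19.2 CPM in Fes WT 1 to 5. The groups overlapped, and Fes WT 5, the one Fes WT tumour with Xist, stood apart from all other tumours. The means were 7.20 ± 1.82 CPM in Fes KO tumours and 8.84 ± 5.82 CPM in Fes WT tumours, with a log2 fold change of -0.29 (SE 0.37). Without Fes WT 5 the log2 fold change was 0.21 (SE 0.21), so its direction rests on that tumour. An annotated antisense gene on the opposite strand shares 511 exonic bases with Cd274, and its level was not used here.

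Pdcd1lg2 was close to the lower limit of detection. It had 0, 2, 1, 2 and 0 reads in Fes KO 1 to 5, against 5, 3, 9, 3 and 5 reads in Fes WT 1 to 5. That is 5 reads over all Fes KO tumours and 25 over all Fes WT tumours, and means of 0.0634 ± 0.0639 CPM in Fes KO tumours and 0.334 ± 0.167 CPM in Fes WT tumours. Every Fes KO tumour lay below every Fes WT tumour in CPM, as in 0.765% of the 28496 genes with at least 1 count. With no filter on low counts the edgeR log2 fold change was -2.24 (SE 0.72, adjusted p = 0.569). At these counts the order of the tumours within a group cannot be read.

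Cd86 and Cd80 encode the costimulatory ligands that antigen-presenting cells show to CD28 and CTLA-4. Cd86 (ENSMUSG00000022901, chromosome 16, 36603869 to 36666081, minus strand) was at 4.48, 8.04, 5.30, 11.7 and 8.31 CPM in Fes KO 1 to 5, against 13, 8.91, 16.6, 6.22 and 14.6 CPM in Fes WT 1 to 5. The groups overlapped, with Fes KO 4 above Fes WT 2 and Fes KO 2, 4 and 5 above Fes WT 4. Means were 7.57 ± 2.85 CPM in Fes KO tumours and 11.9 ± 4.23 CPM in Fes WT tumours, and the log2 fold change was -0.65 (SE 0.33). It stayed below 0 in all 21 alternative fits, which reuse the same tumours, and none of them called it. With the mean of the macrophage markers as a covariate it was -0.07 (SE 0.36). Cd80 (ENSMUSG00000075122, chromosome 16, 38455561 to 38496335, plus strand) was at 2.77, 2.37, 2.03, 2.81 and 4.01 CPM in Fes KO 1 to 5, against 4.05, 1.91, 5.18, 2.07 and 2.67 CPM in Fes WT 1 to 5. Its groups overlapped over most of their range, the means being 2.80 ± 0.747 CPM in Fes KO tumours and 3.18 ± 1.4 CPM in Fes WT tumours, with a log2 fold change of -0.18 (SE 0.32) that became 0.065 without Fes WT 3, the tumour where Cd80 was highest.

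Icosl (ENSMUSG00000000732, chromosome 10, 78069302 to 78083913, plus strand), the ligand of ICOS, was the second most abundant gene of the family. It was at 27.1, 32.3, 46.3, 43.4 and 69.8 CPM in Fes KO 1 to 5, against 39.6, 93.1, 51.3, 62.9 and 40.2 CPM in Fes WT 1 to 5. The groups overlapped, and the tumours of each group differed by more than the group means did: the highest Fes KO tumour was 2.58-fold above the lowest, and the highest Fes WT tumour 2.35-fold. Means were 43.8 ± 16.5 CPM in Fes KO tumours and 57.4 ± 22.1 CPM in Fes WT tumours, with a log2 fold change of -0.39 (SE 0.30).

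Vtcn1 (ENSMUSG00000051076, chromosome 3, 100825459 to 100896922, plus strand) encodes B7-H4, an inhibitory ligand known mainly from epithelial tissues. It had 67 reads in Fes KO 2, or 4.18 CPM, and 2 reads in Fes WT 5, or 0.152 CPM, with 0 reads in the other 4 tumours of each group. Those 2 tumours also had the highest mean level of 8 keratinocyte markers within their groups. It was 7.89 log2 CPM in Fes KO 2, where the remaining Fes KO tumours lay between -1.5 and -0.61, and 2.33 log2 CPM in Fes WT 5, where the remaining Fes WT tumours lay between -1.60 and 1.5. The basal keratin gene Krt5 was at 1596 CPM in Fes KO 2 and at 74.5 CPM in Fes WT 5. The part of keratinocyte RNA in the Vtcn1 level was not tested.

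The make-up of the family also differed between the groups, which follows from the same values. Cd276 was 72.0%, 62.6%, 68.3%, 60.0% and 61.3% of the summed length-scaled level of the 7 genes in Fes KO 1 to 5, against 51.3%, 33.8%, 47.4%, 42.3% and 43.8% in Fes WT 1 to 5. Icosl made up 22.4% ± 4.09 in Fes KO and 36.4% ± 12.3 in Fes WT, while Cd86 made up 5.07% ± 1.94 in Fes KO and 9.53% ± 3.24 in Fes WT (SD, n = 5 each). The length-scaled level of Cd276 was 2.79 to 16.7 times that of Cd274 over the 10 tumours, with a median of 9.25 and the lowest ratio in Fes WT 5.

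**Figure D3:**
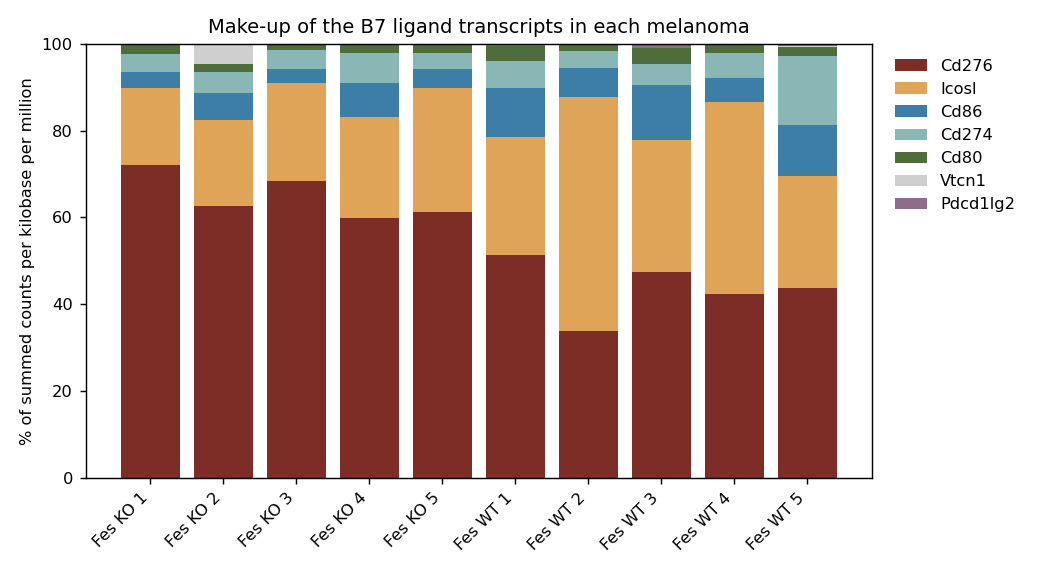
Share of each gene in the summed CPM per kilobase of the 7 genes, in percent, with 1 bar per tumour and the 5 Fes KO tumours left of the 5 Fes WT tumours. Cd276 takes 60.0% to 72.0% in Fes KO and 33.8% to 51.3% in Fes WT.

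The receptors and binding partners of these ligands were measured beside them. Of 6 in the list, 4 passed the filter and none passed the edgeR test (lowest adjusted p = 0.561), with all 4 below 0 and a median log2 fold change of -0.59, against 0.01 over all tested genes. None of the 4 had an unadjusted p below 0.05 (9.62% of all tested genes did), and neither DESeq2 nor limma-voom called any. With the mean of the macrophage markers as a covariate the median turned to 0.22, and without Fes KO 4 it was -1.01. Cd28, the activating receptor of CD80 and CD86, was at 0.740 ± 0.348 CPM in Fes KO tumours and 1.45 ± 0.80 CPM in Fes WT tumours (log2 fold change -0.96, SE 0.48). Icos had -0.83 (SE 0.69), Treml2, proposed as a B7-H3 receptor in mouse, -0.28 (SE 0.74), and Rgmb, a binding partner of PD-L2, -0.35 (SE 0.25). Pdcd1, which encodes PD-1, did not pass the filter and was at 0.126, 0.249, 0, 0.392 and 0 CPM in Fes KO 1 to 5, against 1.11, 0.700, 1.18, 0.366 and 0.991 CPM in Fes WT 1 to 5. The Pdcd1 groups overlapped only through Fes KO 4 and Fes WT 4. Ctla4, also below the filter, was at 0.387 ± 0.602 CPM in Fes KO tumours and 1.05 ± 1.24 CPM in Fes WT tumours.

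Other inhibitory receptors gave 6 tested genes of 8, all below 0 with a median log2 fold change of -0.49. None passed the edgeR test (lowest adjusted p = 0.432) or was called by DESeq2 or limma-voom. Of the 6, 2 had an unadjusted p below 0.05 (9.62% of all tested genes did). Their median was -0.17 with the macrophage covariate and -0.31 without Fes WT 1. Lag3, a receptor that binds MHC class II, was at 8.72 ± 3.14 CPM in Fes KO tumours and 16.9 ± 7.61 CPM in Fes WT tumours (log2 fold change -0.96, SE 0.36). Havcr2, the TIM-3 gene, had -0.81 (SE 0.31), Cd200r1 -0.59 (SE 0.56), Cd160 -0.40 (SE 0.18), Sirpa, the CD47 receptor of myeloid cells, -0.34 (SE 0.18) and Btla -0.09 (SE 0.31). Tigit and Cd96 did not pass the filter, Tigit averaging 0.407 CPM in Fes KO tumours and 0.683 CPM in Fes WT tumours, and Cd96 0.138 CPM in Fes KO tumours and 0.577 CPM in Fes WT tumours.

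**Figure D4:**
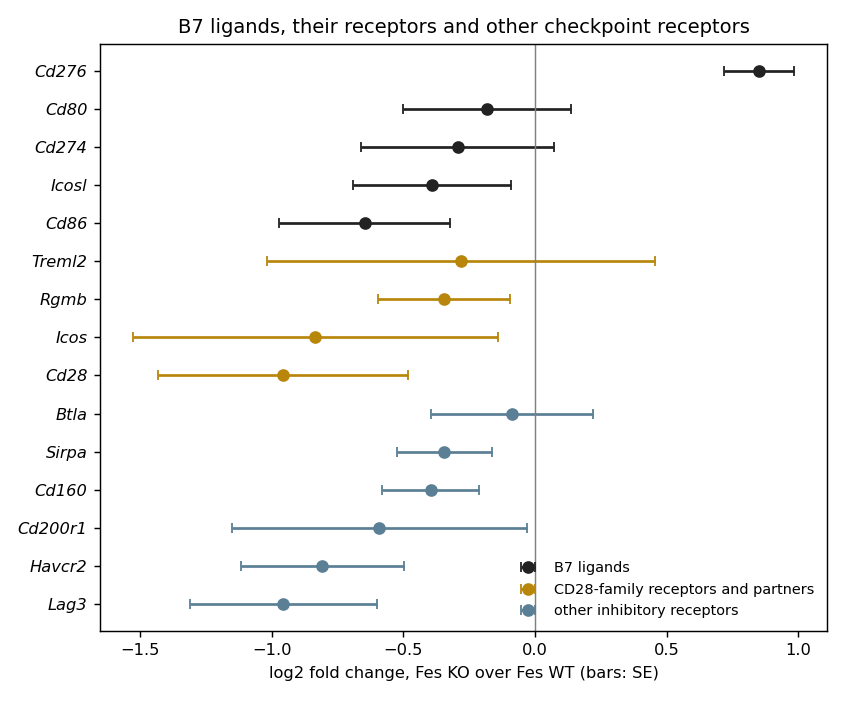
Log2 fold change of Fes KO over Fes WT from the edgeR fit, with the SE as bars, for the 5 tested B7 ligands, 4 receptors and partners and 6 other inhibitory receptors. Cd276, at 0.85, is the one gene to the right of 0, and it was chosen for that value.

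Of 15 other checkpoint ligands 12 were tested, 5 above and 7 below 0, with a median of -0.29 and none called (edgeR, lowest adjusted p = 0.359). Of the 12, 4 had an unadjusted p below 0.05 (9.62% of all tested genes did). With limma-voom 1 was called, Vsig4, a macrophage ligand that restrains T cells, at 1.10 CPM in Fes KO tumours and 5.32 CPM in Fes WT tumours (limma-voom adjusted p = 0.0441). The median of these ligands turned to 0.16 with the macrophage covariate. The 4 most abundant were Cd200, a ligand that restrains myeloid cells, at 403 CPM in Fes KO tumours and 243 CPM in Fes WT tumours (log2 fold change 0.73, SE 0.29), Cd47, the ligand of SIRPα, at -0.36 (SE 0.13), Lgals9, a galectin ligand of TIM-3, at -0.27 (SE 0.30), and Vsir, the VISTA gene, at -0.55 (SE 0.41). Of 11 genes for proteins that alter PD-L1 stability or glycosylation, all 11 were tested, 7 above and 4 below 0, with a median of 0.03. None was called by edgeR (lowest adjusted p = 0.512), DESeq2 or limma-voom. Of the 11, 1 had an unadjusted p below 0.05, near the share over all tested genes (9.62%). Their median lay between -0.02 and 0.12 over the 21 alternative fits, on both sides of 0. Their 4 most abundant, Spop, Cmtm6, Usp22 and Gsk3b, lay between -0.12 and 0.10.

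Interferon-gamma signalling is the best known inducer of Cd274, through JAK kinases and the transcription factors they act on. Of 15 genes of this pathway 14 were tested, 12 below and 2 above 0, with a median of -0.32 and none called (edgeR, lowest adjusted p = 0.239). Of the 14, 2 had an unadjusted p below 0.05 (9.62% of all tested genes did). DESeq2 called 1 of them, Ifngr1 (adjusted p = 0.0335). The median was -0.09 with the macrophage covariate and -0.18 without Fes WT 5. The most abundant were Stat3 at -0.23 (SE 0.14), Jak1 at -0.19 (SE 0.10), the receptor gene Ifngr1 at -0.44 (SE 0.12) and Ifngr2 at 0.12 (SE 0.11). Ifng itself did not pass the filter. The mean log2 CPM of the list was 5.23, 5.24, 4.87, 5.64 and 5.14 in Fes KO 1 to 5, against 5.54, 5.42, 5.59, 5.39 and 6.12 in Fes WT 1 to 5. Fes KO 4 and Fes WT 5, the tumours highest in Cd274 within their groups, were also the highest in this list. Named after its values were seen, Nlrc5, the class I transactivator, was at 83.2 CPM in Fes WT 5, with 26.8 to 37.6 CPM in Fes WT 1 to 4.

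Ligand levels were set beside this list, the macrophage markers and the T cell markers as deviations from the group means, which do not use the contrast between the groups. In bulk tissue, fewer cells of a type and less RNA per cell cannot be told apart. The comparison was made for 7 genes with each list, by permutation within the groups, 2-sided and adjusted over the 7 genes. For Cd274 and the interferon-gamma list, Pearson r was 0.79 (exact permutation p = 0.0296, adjusted p = 0.207) and Spearman rho 0.45 (exact permutation p = 0.180, adjusted p = 0.370) over 10 tumours, and r was 0.72 without Fes KO 3 and Fes WT 5. For Cd86 and the macrophage markers r was 0.71 (exact permutation p = 0.0334, adjusted p = 0.187) and rho 0.66 (exact permutation p = 0.0418, adjusted p = 0.293), and r was 0.84 without Fes KO 3 and Fes KO 5. Cd276 had r = -0.28 (exact permutation p = 0.473, adjusted p = 0.552) and rho = -0.35 (exact permutation p = 0.405, adjusted p = 0.492) with the macrophage markers, and r changed sign to 0.32 without those 2 tumours. Pdcd1lg2 had r = 0.68 with the macrophage markers (exact permutation p = 0.0535, adjusted p = 0.187) and rho = 0.64 (exact permutation p = 0.101, adjusted p = 0.352), with r = 0.69 without the 2 tumours. At 0 to 9 reads per tumour its order within a group cannot be read, so these values are not interpreted. None of the 21 relations passed after adjustment.

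**Figure D5:**
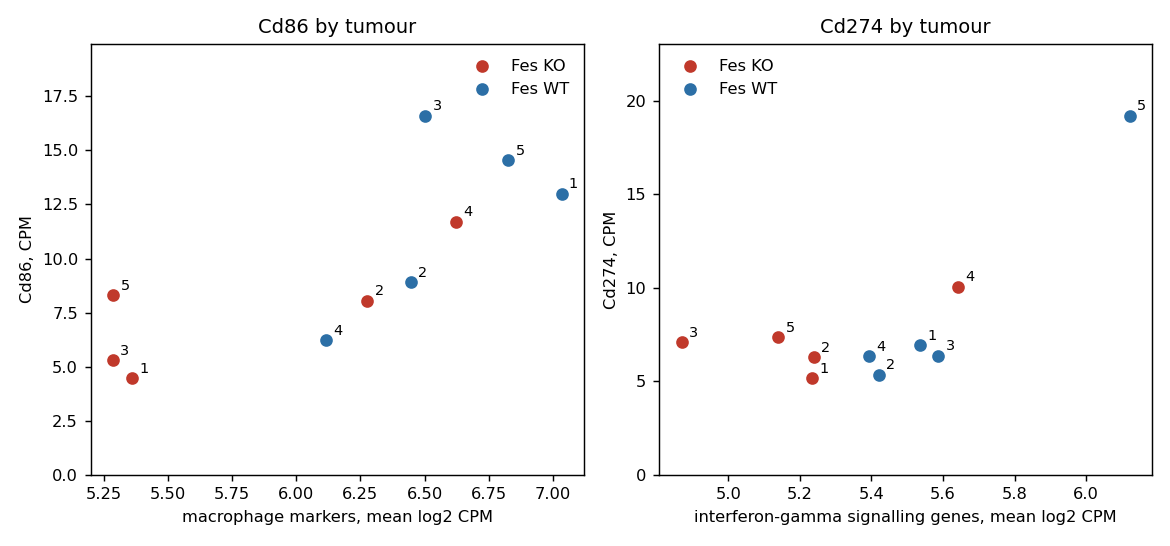
Cd86 in CPM against the mean log2 CPM of 17 macrophage markers (left) and Cd274 in CPM against that of 15 interferon-gamma signalling genes (right), 1 point per tumour with its replicate number. The 3 Fes WT tumours highest in Cd86, at 13 to 16.6 CPM, have marker means of 6.5 to 7.03, and Fes WT 5 is highest in both measures on the right.

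Among the ligands themselves, deviations of log2 CPM from the group means went together most for Cd276 and Cd80 (r = 0.68), Cd80 and Cd86 (r = 0.62) and Cd274 and Cd86 (r = 0.52), given as descriptions of 10 tumours that share the same libraries. The other 7 pairs of the 5 tested genes lay between -0.22 and 0.34.

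Other cell types differed between the tumours too. All 17 macrophage markers lay below 0, with a median log2 fold change of -0.80 and none called by edgeR, DESeq2 or limma-voom. Of the 17, 8 had an unadjusted p below 0.05, where 9.62% of all tested genes did. The mean log2 CPM of these markers was 5.29 to 6.62 in Fes KO and 6.12 to 7.03 in Fes WT. With that mean as a covariate, the log2 fold change of Cd276 was 0.74 (SE 0.18, edgeR adjusted p = 0.501), that of Cd86 -0.07 (SE 0.36) and that of Cd274 0.16 (SE 0.49). The covariate itself lay lower in most Fes KO tumours, so in these fits macrophage content and group cannot be told apart. The part of macrophage content in the group values of Cd86 and Cd274, or of any list median, was not tested. T cell markers had a median of -1.11 over 9 tested genes, dendritic cell markers -0.09 over 11, B and plasma cell markers -1.49 over 3, fibroblast markers -0.25 over 8, endothelial markers 0.06 over 6, skeletal muscle markers -2.96 over 8, keratinocyte markers 2.84 over 2 and melanocyte markers 1.95 over 8, with no gene called by edgeR in any of these lists. Unadjusted p values below 0.05 were found for 3 melanocyte, 1 keratinocyte and 1 dendritic cell marker, and DESeq2 called 2 melanocyte markers, Tyr and Dct. Several of these medians rest on 1 tumour. Without Fes KO 2 the median was -1.94 for keratinocyte, 0.12 for melanocyte, -3.64 for B and plasma cell, -0.72 for dendritic cell and -7.56 for muscle markers, and without Fes WT 3 the muscle median was 1.09. With the macrophage covariate the T cell median was -0.18. The melanocyte marker Sox10 was at 743 CPM in Fes KO tumours and 637 CPM in Fes WT tumours. The pigment genes Tyr, Mlana, Tyrp1 and Pmel were low in most tumours. Tyr averaged 13.2 CPM in Fes KO tumours and 1.12 CPM in Fes WT tumours, and Mlana 6.44 CPM in Fes KO tumours against 0.52 CPM in Fes WT tumours. Tyrp1 averaged 15.0 CPM in Fes KO tumours against 1.06 CPM in Fes WT tumours, and Pmel 6.24 CPM in Fes KO tumours against 3.19 CPM in Fes WT tumours. Dct, a further pigment gene, was higher, averaging 87.9 CPM in Fes KO tumours and 11.5 CPM in Fes WT tumours. Fes KO 2 was the highest tumour for these 4 and for Dct, with 51.1 CPM of Tyr and 325 CPM of Dct. Sox10 is also made by Schwann cells, and the lineage of the tumour cells was not tested further. Fes was at 38.9 ± 11.5 CPM in Fes KO tumours and 81.3 ± 12.7 CPM in Fes WT tumours. Fes was lower in every Fes KO tumour than in any Fes WT tumour, as were 1.11% of all tested genes. Its log2 fold change was -1.06 (SE 0.19) and it was not called (edgeR adjusted p = 0.0846). Reads on Fes remained in the tumours labelled Fes-/-, at 29.2 to 57.5 CPM. Total counts were 13226783 to 16599120 per tumour.

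By a rule on likeness, the genes averaging 1 CPM or more whose log2 CPM followed Cd276 most closely over the 10 tumours were Pdzrn4 (r = 0.92), Gm15920 (0.92), Pla2g6 (0.92), Pwwp2b (0.92) and Rps15a-ps8 (0.91), out of 14291 genes ranked. Among those that ran most against it were Psd2 (r = -0.95), Gm12216 (-0.94) and Gm6634 (-0.93). Rps15a-ps8 is named as a ribosomal protein pseudogene, so its counts are uncertain, since reads can be shared with near-identical copies. The ranking pooled both groups, so the difference by which Cd276 was chosen entered each r. As deviations from the group means, r was 0.79 for Pdzrn4 but 0.35 for Gm15920 and 0.13 for Rps15a-ps8, and -0.84 for Psd2. These values were picked as the highest and lowest of many and describe these tumours. No other B7 ligand was among them.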

How the data were processed

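RNA was extracted from 10 mouse melanomas and sequenced. The authors deposited a count of reads for each gene and log2 values that, from the values, are the log2 of each count divided by 1 factor per tumour, plus 1. Per the submitters' processing notes, FastQC, STAR 2.51b and Subread 1.4.6 were used with mm10 or GRCm38, with no settings stated. Counts were tested with edgeR 4.0.16 in R 4.3.3 (filterByExpr, TMM, quasi-likelihood fit, 2-sided, Benjamini-Hochberg over 14816 genes). CPM are counts over the TMM library sizes, and log2 CPM have a prior count of 2. Levels per length use the union of exons in GENCODE M21, with 0.01 added before log2. The interferon-gamma and T cell relations and the pairs of ligands were added after the data were seen. The genes and the lists were chosen with earlier results of these data known. The rule for named genes takes the 7 ligands, Fes, the 2 receptor lists, the called and the 4 most abundant genes of each other list, and the 5 genes most and least like Cd276. Some genes that the rule takes are not reported here. For cell type lists medians are given in place of the 4 genes, beside Krt5, Sox10 and 5 pigment genes. Of the list genes, 2 were matched by Ensembl identifier under another symbol. On simulated counts of 14816 genes, edgeR recovered 53% of genes with a 2-fold change and 94% with a 4-fold change. The changed genes all had a mean above 5 CPM, so genes at lower levels, such as Cd80 and Cd28, were not covered. The simulation gave 153 calls, against 26 in the data, so its adjusted threshold was easier to pass. Alternatives were RLE factors, library size alone, DESeq2 1.42.0, limma 3.58.1 (voom with quality weights, and on the log2 table as deposited), no filter and a stricter one, a replicate block, macrophage markers as a covariate, and tumours left out. Same-numbered tumours of the 2 groups had deviations that correlated at -0.38 to 0.17, so no pairing by number was seen. Whether same-numbered tumours were handled together was not tested.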

Additional observations from a re-analysis of the deposited data

Results flagged for a closer look

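In 54 groups of 5 tumours examined, 7 values stood apart from the rest of their group by more than Dixon's 95% critical value of 0.710 (the gap to the nearest tumour over the range of the group). Chance flags about 1 in 20 groups where values follow a normal distribution. CPM need not, and a tumour with reads is always flagged where the other 4 are at 0, as for Vtcn1. The number of flags is therefore not set against that rate. Cd274 was at 19.2 CPM in Fes WT 5, where Fes WT 1 to 4 had 5.35 to 6.92 CPM. The interferon-gamma signalling list had a mean of 6.12 log2 CPM in the same tumour, against 5.39 to 5.59 in the others. Vtcn1 was at 4.18 CPM in Fes KO 2 and at 0.152 CPM in Fes WT 5, with 0 in the other 4 tumours of each group. Keratinocyte markers had a mean of 7.89 log2 CPM in Fes KO 2, where Fes KO 1, 3, 4 and 5 had -1.5 to -0.61. Treml2 was at 13.8 CPM in Fes KO 4, where the remaining Fes KO tumours had 1.12 to 2.47 CPM, and Havcr2 at 6.73 CPM in that tumour, where they had 2.34 to 3.50 CPM.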

How the results depend on the processing

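The number of called genes, 26 as reported, was 300 with DESeq2, 115 with limma-voom, 4 with the replicate block, 6 with the macrophage covariate, 64 without the 3 Xist-expressing tumours (Fes KO 1, Fes KO 2 and Fes WT 5), and 10 to 54 with 1 tumour left out (10 without Fes KO 1 or Fes KO 3, 12 without Fes KO 5, 11 without Fes WT 2, 15 without Fes WT 1, 16 without Fes WT 4 and 54 without Fes WT 5). For Cd276 the call was lost with no low-count filter (log2 fold change 0.84, adjusted p = 0.0606), with the replicate block (0.85, adjusted p = 0.107), with the macrophage covariate (0.74, adjusted p = 0.501) and without the 3 Xist-expressing tumours (0.98, adjusted p = 0.0534), and with 1 tumour left out its log2 fold change was 0.77 to 0.91 (adjusted p = 0.0326 to 0.148). The lowest adjusted p of Cd276 was 5.1e-06, with DESeq2. No pairing by replicate number was seen, as no tumour of Fes KO correlated best with its own number, but shared handling was not tested. Cd274 turned direction with the macrophage covariate (0.16), without the 3 Xist-expressing tumours (0.39) and without Fes WT replicate 5 (0.21), its range with 1 tumour left out being -0.45 to 0.21. Cd80 turned without the keratinocyte-richest and the muscle-richest tumour (0.11) and without Fes WT replicate 3 (0.065; -0.35 to 0.065 with 1 tumour left out), and its r with the macrophage markers turned to -0.0073 without Fes WT replicate 4 (-0.0073 to 0.35 with 1 tumour left out). Except where the left-out tumour is the one named, the cause was not tested. Cd86 and Icosl kept their direction in all 21 alternatives, though Cd86 came to -0.07 with the macrophage covariate. The order of levels was the same in 10 of 11 alternatives, and without Fes KO replicate 2 Vtcn1 fell below Pdcd1lg2. Between 19 and 20 of the 21 pairs passed with 1 tumour left out, and 19 with the longest transcript. Of 294 counts of called list genes under the alternatives, 4 were above 0: Vsig4 with limma-voom (adjusted p = 0.0441) and without Fes KO replicate 4 (0.0286), Ifngr1 with DESeq2 (0.0335), and Tyr and Dct with DESeq2. Of 294 list medians 26 moved by at least 1 SD, among them keratinocyte markers, which turned to -1.0 with limma-voom, -0.35 with limma on the deposited values and -1.02 with the replicate block, and both B7 receptors (0.22) and other checkpoint ligands (0.16), which turned with the macrophage covariate. At 30 reads over all tumours the level of Pdcd1lg2 is limited by depth.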
